A study of Mus musculus with 6 samples.

Results

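The 10 genes described here encode the TSC complex, its target Rheb, and the subunits of the mTOR complexes: Tsc1, Tsc2, Tbc1d7, Rheb, Mtor, Mlst8, Deptor, Rptor, Akt1s1 and Rictor. They were chosen by name from the 30281 gene symbols of the deposited table, and all 10 were found. RNA-Seq of mouse cells gave 6 libraries, with 1 library for each cell line and condition. One pair came from mouse embryo fibroblasts (MEFs), labelled Tsc2+/+ p53-/- and Tsc2-/- p53-/-, both without treatment. The other 4 came from a pair of kidney epithelial lines labelled Tsc2-null, MKOC and the tumor-derived line TJ. Each kidney line was sampled untreated and after 18 h with 100 nM rapamycin, an inhibitor of mTORC1. No kidney library labelled Tsc2+/+ was among the samples, and no MEF library was treated with rapamycin.

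TSC1, TSC2 and TBC1D7 form a complex that switches off the small GTPase RHEB, and RHEB bound to GTP activates the kinase mTOR in mTOR complex 1 (mTORC1). mTOR works in a pair of complexes: mTORC1, built with RAPTOR and sensitive to rapamycin, drives growth and protein synthesis, whereas mTORC2, built with RICTOR, phosphorylates kinases such as AKT. Loss of TSC2 leaves mTORC1 active, and this is known from tumors of the kidney and lung in tuberous sclerosis and lymphangioleiomyomatosis.

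Library totals ranged from 22887020 to 37505004 estimated counts. Levels are given in TPM, a relative abundance corrected for transcript length, so different genes can be set side by side. TPM adds up to the same total in each library, and transcripts shorter than 300 bases took 20.9% of it in the Tsc2+/+ MEFs against 4.09% to 7.998% in the others. The kidney lines held 8 of 10 kidney epithelial markers at 10 TPM or more, but Epcam and Krt19 were below 1 TPM. The same markers summed to 1535 to 2587 TPM in the kidney libraries and to 0.253 and 78.0 TPM in the Tsc2+/+ and Tsc2-/- MEFs, and the sum was higher with rapamycin in both lines. Fibroblast markers summed to 1878 and 2530 TPM in the Tsc2+/+ and Tsc2-/- MEFs, and to at most 52.6 TPM in the kidney libraries, where the sum was also higher with rapamycin, 27.1 and 52.6 TPM in MKOC and 8.17 and 14.1 TPM in TJ cells. Of these fibroblast markers Dcn alone reached 1 TPM in both MKOC libraries and in untreated TJ cells, and Dcn and Col3a1 did in treated TJ cells. In the Tsc2-/- MEFs Krt18 and Krt19 were the only kidney epithelial markers to reach 1 TPM. These sums thus describe few genes. The part of either marker group in the results was not tested. Lum was below 1 TPM in both MEF libraries, and Fbn1 and Thy1 were below 1 TPM in the Tsc2+/+ MEFs. Of 5 leukocyte markers, Cd68 alone reached 1 TPM, and it did so in every library; the 5 summed to 1.69 to 8.30 TPM. In bulk RNA, fewer cells of a type and less RNA per cell cannot be told apart.

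Tsc2, the GTPase-activating subunit and the gene named in the genotypes, was read in every library, including those labelled null. Tsc2 stood at 22.6 TPM in the Tsc2+/+ MEFs and at 10.5 TPM, from 945 estimated counts, in the library labelled Tsc2-/-. The libraries labelled Tsc2-null held 49.1 TPM in untreated MKOC cells, 19.5 TPM in MKOC cells with rapamycin, 44.0 TPM in untreated TJ cells and 19.1 TPM in TJ cells with rapamycin. Untreated kidney cells thus had the highest Tsc2 RNA of the series, and the library labelled Tsc2-/- had the lowest. The files give 1 Tsc2 transcript of 6018 bases with 40 exons (ENSMUST00000097373) and no values per exon, so a transcript total does not show whether an altered or deleted part was present, and it says nothing of the protein. Trp53, labelled -/- in both MEFs, was likewise read at 26.3 TPM in the Tsc2+/+ and 28.5 TPM in the Tsc2-/- MEFs.

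Tsc2 lies at chr17:24595816-24632630 on the minus strand of GRCm38, with the DNA repair gene Nthl1 starting 49 bases away on the other strand and Pkd1, the polycystin 1 gene, sharing 693 exon bases with its far end. The sequence before the Tsc2 start is shown because a single short stretch serves as the upstream side of both Tsc2 and Nthl1. The stretches before Tbc1d7 and Rictor are shown beside it as the other TSC complex gene that was lower, and the mTORC2 gene that was higher, with rapamycin. All come from RefSeq on GRCm38.p6 and read 5′ to 3′ along the strand of the gene, ending at its RefSeq start: chr17:24632628-24632679 (minus strand), chr13:43171502-43171751 (minus) and chr15:6708131-6708380 (plus). For Tsc2 and Rictor the GENCODE start, used for gene positions and distances, lies slightly upstream of the RefSeq start. The last bases of those stretches therefore fall inside the GENCODE gene. Capitals mark matches on either strand to CACGTG (E-box), CCGGAA (ETS core) or CCAAT.
Tsc2: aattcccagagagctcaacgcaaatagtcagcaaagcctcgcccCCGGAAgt
Tbc1d7: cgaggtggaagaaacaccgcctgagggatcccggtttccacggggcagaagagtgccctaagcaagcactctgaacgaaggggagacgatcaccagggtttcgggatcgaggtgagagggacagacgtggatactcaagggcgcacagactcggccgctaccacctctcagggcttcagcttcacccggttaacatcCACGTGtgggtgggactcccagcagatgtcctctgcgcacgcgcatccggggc
Rictor: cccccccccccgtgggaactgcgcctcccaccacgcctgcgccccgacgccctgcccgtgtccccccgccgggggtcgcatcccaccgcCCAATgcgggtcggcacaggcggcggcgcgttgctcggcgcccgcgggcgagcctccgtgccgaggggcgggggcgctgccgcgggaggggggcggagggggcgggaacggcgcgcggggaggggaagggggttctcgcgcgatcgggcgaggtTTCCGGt

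A RefSeq promoter was matched for 9 of the 10 genes, all but Deptor. Within 250 bases upstream, CCGGAA was found for 5 of the 9 (Tsc2, Rheb, Mtor, Akt1s1 and Rictor), against 12.2% of 27025 promoters of that length. CACGTG was found for Tbc1d7 and Rheb, against 6.05% of promoters, and CCAAT for Mtor and Rictor, against 34.5%. Neither TGACGT, the core of the cAMP response element (6.56% of promoters), nor TGATGNAA, the ATF4 element (3.53%), was found for any of the 9. A match describes these letters only.

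**Figure D1:**
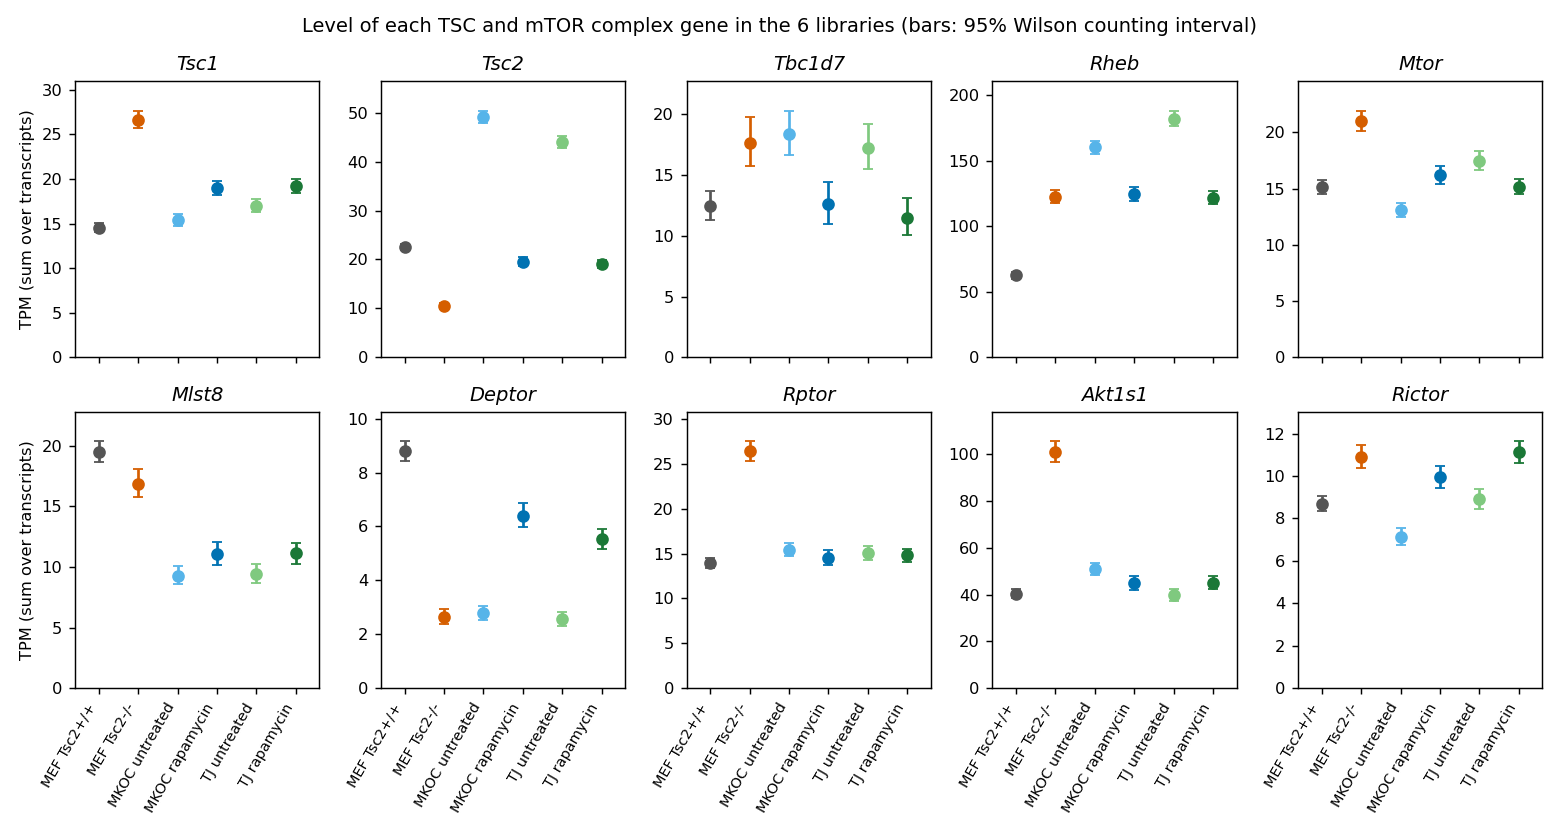
TPM of each of the 10 genes (y axis, from 0) in the 6 libraries (x axis); points are single libraries and bars are 95% Wilson intervals of the counts. Tsc2 is highest in the untreated kidney cells at 44.0 and 49.1 TPM, Deptor is at 2.55 to 2.79 TPM in those cells and in the Tsc2-/- MEFs, and Akt1s1 reaches 101 TPM in the Tsc2-/- MEFs.

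Over the 6 libraries the levels of the 10 genes spanned from 2.55 TPM for Deptor to 182 TPM for Rheb, as the plot of levels by library shows. By summed TPM Rheb was the most abundant of the 10 in every library and Akt1s1, which encodes the mTORC1 inhibitor PRAS40, was second in 5 of the 6, with Tsc2 second in untreated TJ cells. The highest library exceeded the lowest by at least 2-fold for 5 genes: 4.70-fold for Tsc2, 3.44-fold for Deptor, 2.91-fold for Rheb, 2.54-fold for Akt1s1 and 2.10-fold for Mlst8. Tsc1, Tbc1d7, Mtor, Rptor and Rictor stayed within 1.56-fold to 1.89-fold. The intervals here and in the plot cover counting error only.

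Tsc1, the scaffold subunit of the TSC complex, ran from 14.5 TPM in the Tsc2+/+ MEFs to 26.7 TPM in the Tsc2-/- MEFs, with the kidney libraries between 15.4 and 19.2 TPM. The balance of Tsc2 to Tsc1 RNA therefore differed widely between libraries. The ratio of their TPM was 1.55 in the Tsc2+/+ MEFs and 0.392 in the Tsc2-/- MEFs. It was 3.20 in untreated MKOC and 2.59 in untreated TJ cells, and 1.03 and 0.996 with rapamycin. Tbc1d7, the third subunit, followed a narrower course against Tsc1: its ratio was 1.197 and 1.01 in untreated MKOC and TJ cells, 0.664 and 0.598 with rapamycin, and 0.854 and 0.661 in the Tsc2+/+ and Tsc2-/- MEFs.

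Rapamycin was compared with no treatment over the 2 kidney lines to ask how mTORC1 inhibition altered the RNA of its own components. Of 12952 genes tested with edgeR's quasi-likelihood test and Benjamini-Hochberg adjustment at 0.05, with the cell line as a covariate, 17.5% were higher and 17.4% lower, together 34.9%. Among the 10 genes, 2 were higher (Deptor and Rictor) and 3 lower (Tsc2, Tbc1d7 and Rheb). With 5 of 10 called against 34.9% of all genes, and a median log2 fold change of 0.06 against 0.02, the group as a whole was near the background. The fit rests on 1 library per line and treatment, and with the line as a term it leaves 1 residual degree of freedom. Its error comes from how far the 2 lines differ in response, and edgeR draws much of the error for a gene from the other genes.

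Tsc2 fell to 41.3% of its untreated level (log2 fold change −1.27, SE 0.10, adjusted p 2.3e-05 by edgeR's quasi-likelihood test). The drop was 1.34 in MKOC and 1.21 in TJ cells on the log2 scale, and the untreated and treated libraries did not overlap. Only 1.61% of the genes tested had a lower fold change. On the other side of the 52 bases shown above, Nthl1 had a log2 fold change of 0.28 (95% interval −0.13 to 0.69), which did not pass the test. Pkd1, which overlaps the end of Tsc2 on the opposite strand, rose by 0.63. Whether reads of the shared 693 bases were assigned by strand is not given in the sources used here, so part of each value may include the other gene.

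Tbc1d7 read 18.4 TPM in untreated MKOC, 12.6 TPM in treated MKOC, 17.2 TPM in untreated TJ and 11.5 TPM in treated TJ cells. It fell by 0.58 on the log2 scale (SE 0.16, adjusted p 0.0183 by edgeR's quasi-likelihood test), from 211 to 397 counts per kidney library, the thinnest depth of the 10 genes here. Rheb, the GTPase that the TSC complex inactivates and the direct activator of mTORC1, read 160 and 182 TPM in untreated MKOC and TJ cells and 125 and 122 TPM with rapamycin. It fell by 0.49 (SE 0.10, adjusted p 0.0046 by the same test), with both lines lower. Its paralog Rhebl1 went the other way, from 15.1 to 33.4 TPM in MKOC and from 17.3 to 29.1 TPM in TJ cells (log2 fold change 0.94). Tsc1 stayed outside the threshold, at a log2 fold change of 0.26 with a 95% interval of 0.03 to 0.50 and an adjusted p of 0.0793 by edgeR's quasi-likelihood test.

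**Figure D2:**
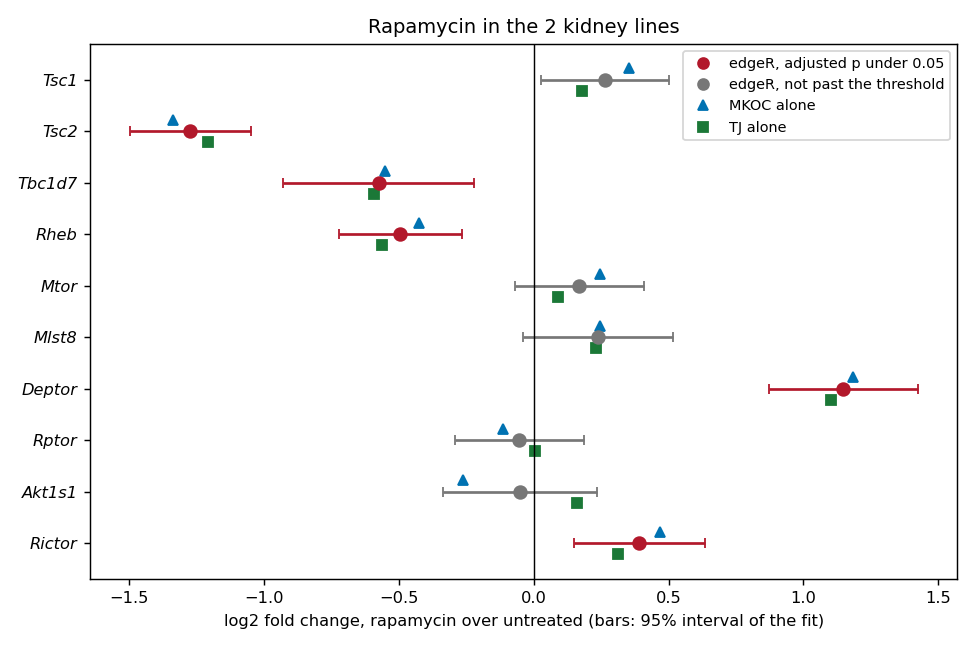
Log2 fold change with rapamycin over untreated (x axis) for the 10 genes (y axis). Circles and bars are the edgeR estimate and its 95% interval over the 2 kidney lines, triangles are MKOC alone and squares TJ alone; Tsc2 at −1.27 and Deptor at 1.15 lie farthest from 0, and the lines fall on opposite sides of 0 for Akt1s1.

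Deptor encodes an inhibitor that binds mTOR in both complexes. It read 2.79 TPM in untreated MKOC and 2.55 TPM in untreated TJ cells, against 6.403 and 5.52 TPM with rapamycin. Both treated libraries lay above both untreated ones, and the rise was 2.22-fold (log2 fold change 1.15, SE 0.12, adjusted p 1.4e-04 by edgeR's quasi-likelihood test). The kinase gene Mtor had a log2 fold change of 0.17 (95% interval −0.07 to 0.41) and Mlst8, the other subunit shared by both complexes, 0.24 (−0.04 to 0.52). Neither passed the test. For Mtor in TJ cells the scales differed in direction: its summed TPM was 17.5 untreated and 15.1 with rapamycin, whereas its 8564-base transcript, which held 94.4% to 98.2% of the Mtor counts, read 11.3 and 12.4 TPM. The summed TPM gives more weight to short transcripts. The ratio of Deptor to Mtor TPM was 0.213 and 0.146 in untreated MKOC and TJ cells and 0.396 and 0.365 with rapamycin. Against the main Mtor transcript alone, chosen after seeing the data, it was 0.283 and 0.225 untreated and 0.540 and 0.446 with rapamycin.

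Rptor, which encodes the mTORC1 scaffold RAPTOR, read 15.4 and 14.5 TPM in MKOC and 15.0 and 14.8 TPM in TJ cells, untreated and treated in turn. Its log2 fold change was −0.05 with a 95% interval of −0.29 to 0.19. Rictor, which encodes the mTORC2 scaffold, read 7.14 and 9.96 TPM in MKOC and 8.90 and 11.1 TPM in TJ cells, higher with rapamycin in each line. Rictor rose by 0.39 (SE 0.11, adjusted p 0.0190 by edgeR's quasi-likelihood test). The ratio of Rictor to Rptor TPM went from 0.464 to 0.685 in MKOC and from 0.591 to 0.751 in TJ cells. That ratio uses the sum over Rptor transcripts. The protein-coding Rptor transcript alone read 6.60 and 6.11 TPM in MKOC and 6.86 and 7.25 TPM in TJ cells, below Rictor in each library. Akt1s1 had opposite signs in the lines, −0.26 in MKOC and 0.16 in TJ cells from counts, and a combined log2 fold change of −0.05 (95% interval −0.34 to 0.23).

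The calls depended on few libraries. When the untreated TJ library was left out none of the 10 genes passed, without the untreated MKOC library Tsc2 alone passed, and with either of the treated libraries left out Tsc2 and Deptor passed. With 3 libraries the cell line had to be dropped from the fit, and the number of all genes called fell from 4526 to between 0 and 613. Without the line as a block, on all 4 libraries, Tsc2, Deptor and Rheb passed, as they did with DESeq2 on the original design.

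Some members are read from more than 1 transcript. Tsc2, Deptor and Rictor each had all their counts on 1 transcript. Rheb had 9.60% to 13.9% of its counts, but 33.6% to 43.6% of its TPM, on a 522-base transcript annotated as a retained intron with no coding sequence. The coding Rheb transcript alone read 37.9 and 80.7 TPM in the Tsc2+/+ and Tsc2-/- MEFs, below the summed Akt1s1, and 70.1 to 104 TPM in the kidney libraries, above it. Rptor was split between the 34-exon protein-coding transcript (ENSMUST00000026671, 47.7% to 61.9% of its counts) and a 33-exon one annotated for nonsense-mediated decay (ENSMUST00000147781, 34.5% to 49.6%), which lacks a 76-base exon at chr11:119811945-119812020. The decay transcript was at its lowest share in the Tsc2+/+ MEFs, at 34.5%, against 42.4% in the Tsc2-/- MEFs and 44.4% to 49.6% in the kidney libraries. The main transcript of Akt1s1 held 79.1% and 81.7% of its counts in untreated MKOC and TJ cells and 69.4% and 68.4% with rapamycin. That transcript read 38.04 and 28.0 TPM in MKOC and 30.4 and 28.6 TPM in TJ cells, untreated and treated. It was lower with rapamycin in both lines, so the rise of the summed Akt1s1 in TJ cells rests on its other transcripts. These shares are estimates from reads that the transcripts have in common, given as a description. Besides Tsc2, the members Mlst8, Deptor, Rptor and Akt1s1 share exon bases with a gene on the opposite strand; of these partners Bricd5 (Mlst8) and Gm9920 (Deptor) were below 1 TPM in all libraries, and Tbc1d17, which shares 89 bases with Akt1s1, read 24.1 to 43.2 TPM.

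TJ cells were compared with MKOC cells to ask whether the tumor-derived line differed in these genes, using the same 4 libraries and the same fit as above. None of the 10 genes was called, where 8.79% of all genes were (edgeR's quasi-likelihood test, 1139 genes). No member was below an unadjusted p of 0.05, none was called by DESeq2 or limma, and the smallest adjusted p was 0.276, for Rictor. The log2 difference, TJ minus MKOC, was 0.22 for Rictor (95% interval −0.02 to 0.46) and −0.11 for Tsc2 (−0.34 to 0.11). It was −0.19 for Deptor (−0.47 to 0.08) and −0.18 for Akt1s1 (−0.47 to 0.11). Line and culture cannot be told apart in these libraries, so the intervals do not bound how far the lines could differ. Of the pathway genes, Rragd was lower in TJ cells (−1.15) and Ddit4, Sesn3, Prkaa2 and Pdcd4 were higher (0.55 to 0.90). None of these calls stood with the cell line alone in the fit, or with either MKOC library left out, where 0 genes were called in all.

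The MEF libraries compared cells labelled Tsc2-/- and Tsc2+/+, with 1 library per genotype and so with no test. The log2 ratio of TPM, with 1 TPM added to each value, had a median of 0.45 over the 12771 genes of at least 1 TPM in either library, so values are best read against that shift. By this measure 25.2% of genes were at least 2-fold higher and 5.18% at least 2-fold lower in the Tsc2-/- MEFs. Of the 10 genes, 1 was at least 2-fold higher (Akt1s1) and 2 were at least 2-fold lower (Tsc2 and Deptor).

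Deptor read 8.79 TPM in the Tsc2+/+ and 2.65 TPM in the Tsc2-/- MEFs, a log2 ratio of −1.42, lower than in all but 2.91% of genes. Tsc2 had a log2 ratio of −1.04 and Mlst8, at 19.5 and 16.9 TPM, of −0.20. These 3 genes were lower in the Tsc2-/- MEFs under each scaling tried. Akt1s1 went from 40.5 to 101 TPM, a log2 ratio of 1.30.

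The other members were higher in the Tsc2-/- MEFs by TPM. Rheb went from 62.7 to 123 TPM (log2 ratio 0.95), Rptor from 14.0 to 26.4 TPM (0.87) and Tsc1 from 14.5 to 26.7 TPM (0.83). Tbc1d7 at 0.47 lay near the median of all genes, as did Mtor at 0.45 by summed TPM. For Mtor that place rests on the sum over transcripts, since its main transcript read 9.005 and 16.3 TPM, a log2 ratio of 0.79. Rictor at 0.30 lay below that median, and its sign flipped to −0.06 when the TPM were scaled to a median ratio of 1 or replaced by CPM, the share of the library's counts. After that scaling no member was 2-fold higher, against 15.8% of genes, and Tsc2 and Deptor were still 2-fold lower, against 8.21%. The ratio of Deptor to Mtor TPM, which needs no scaling between libraries, was 0.581 in the Tsc2+/+ and 0.126 in the Tsc2-/- MEFs, or 0.976 and 0.162 against the main Mtor transcript, an alternative chosen after seeing the data. That of Rictor to Rptor was 0.622 and 0.413. The protein-coding Rptor transcript alone read 7.65 and 12.2 TPM (log2 ratio 0.61), beside 8.70 and 10.9 TPM for Rictor.

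**Figure D3:**
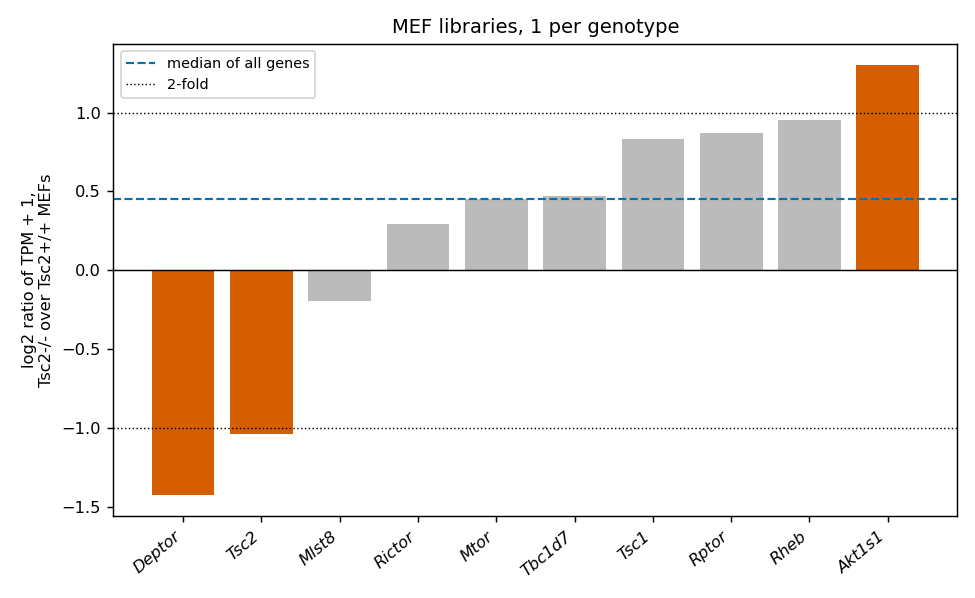
Log2 ratio of TPM + 1, Tsc2-/- over Tsc2+/+ MEFs (y axis), for the 10 genes in rising order (x axis), 1 library per genotype. The dashed line is the median of all genes at 0.45 and the dotted lines mark 2-fold; Deptor at −1.42 and Tsc2 at −1.04 lie below the lower line, and Akt1s1 at 1.30 above the upper one.

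Around the complexes, the tested genes of 5 pathway lists were read with the same rapamycin fit, against a median log2 fold change of 0.02 over all genes. Of the substrates of mTORC1 and mTORC2, 7 of 16 were higher and 2 lower, beside 17.5% and 17.4% of all genes, and the median was 0.07. Pdcd4, a translation inhibitor that mTORC1 signalling marks for degradation, went from 6.38 to 31.9 TPM in MKOC and from 9.82 to 46.2 TPM in TJ cells (log2 fold change 2.23). The autophagy genes Atg13 (1.55) and Ulk1 (0.97), the phosphatidate phosphatase Lpin1 (1.35), the mTORC2 target Sgk1 (1.31), Eif4b (0.84) and Maf1 (0.47) also rose. Eif4ebp1, the translation repressor 4E-BP1, fell by 0.66. Eef2k fell by 0.46 from counts, although its summed TPM in TJ cells was 39.7 both untreated and with rapamycin.

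Among energy and stress inputs 7 of 15 genes were lower and none was higher, beside 17.4% and 17.5% of all genes, and the median was −0.23. Ddit4, which encodes the mTORC1 inhibitor REDD1, read 95.03 and 138 TPM in untreated MKOC and TJ cells and 20.8 and 52.5 TPM with rapamycin, a fall of 1.79. Sesn2, a leucine sensor that restrains mTORC1, fell by 1.40 and its relative Sesn3 by 0.65. The AMPK catalytic gene Prkaa2 fell by 0.82, while the other AMPK catalytic gene, Prkaa1, had a log2 fold change of 0.00 (95% interval −0.23 to 0.23).

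The amino acid arm of Rag, Ragulator and GATOR genes had 1 of 21 higher and 4 lower, the latter near the 17.4% of all genes that were lower (17.5% were higher), and a median of −0.05; the lowest was Seh1l at −0.52. Of the PI3K and AKT genes, 3 of 11 were higher and none lower, beside 17.5% and 17.4% of all genes, with a median of 0.07. The highest was Pik3ca, the catalytic subunit of PI3K, at 0.63 from counts, although its summed TPM in TJ cells was 23.5 untreated and 24.4 with rapamycin. The mTORC2 and assembly genes had 2 of 6 lower and none higher, beside 17.4% and 17.5% of all genes, with a median of −0.24. Those 2 were Ruvbl2 (−0.85) and Ruvbl1 (−0.53), ATPases that help assemble mTOR complexes; the mTORC2 genes Prr5 and Prr5l were too low to test.

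**Figure D4:**
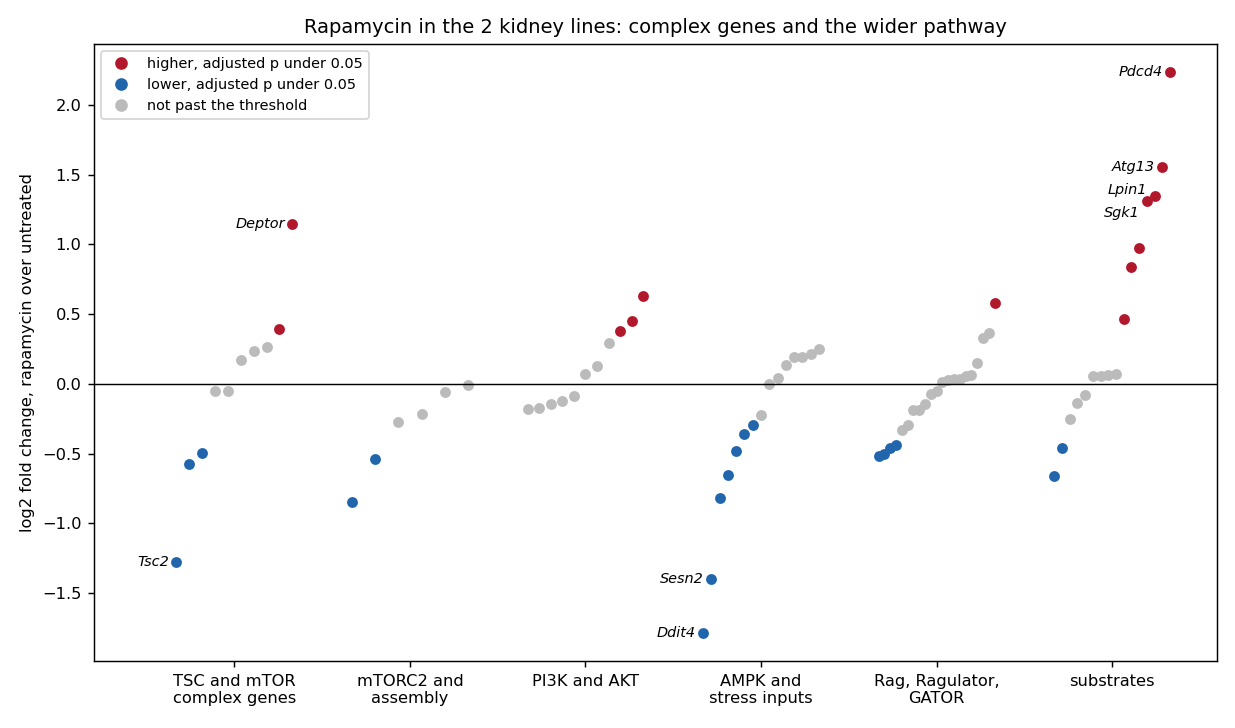
Log2 fold change with rapamycin over untreated (y axis) for the 10 complex genes and the tested genes of 5 pathway lists (x axis); each point is a gene, red where higher, blue where lower and grey where the adjusted p did not pass 0.05, with names for called genes beyond 1 on the log2 scale. Red points reach 2.23 (Pdcd4) among the substrates, and blue points reach −1.79 (Ddit4) among the stress inputs.

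In the MEFs, 17 of the 73 list genes at 1 TPM or more were at least 2-fold higher and 3 at least 2-fold lower in the Tsc2-/- library, beside 25.2% and 5.18% of all genes and without a test. The mTORC2 partner Prr5 went from 1.02 to 22.1 TPM and Prr5l from 1.87 to 17.6 TPM. Sesn3 went from 1.08 to 31.3 TPM and Ddit4 from 21.2 to 104 TPM, and Ddit4l was listed at 0 in the Tsc2+/+ and at 3.997 TPM in the Tsc2-/- library. The others higher were Ruvbl1, Pik3cb, Prkab1, Prkag1, Prkag2, Rragd, Lamtor1, Depdc5, Sec13, Itfg2, Grb10 and Tfeb, at log2 ratios from 1.10 to 2.26. Among the 3 lower were Lpin1 (−1.76) and Eef2k (−1.22); Eef2k was at −0.41 once transcripts under 300 bases were left out.

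Among the genes whose levels most resembled those of Tsc2 over the 6 libraries, out of 10115 genes of at least 10 TPM in at least 1 library, were Mapk8 (Pearson r 0.991), Mipol1 (0.985), Fam96a (0.980) and Rnaset2b (0.976). Mapk8 read 41.8 and 31.8 TPM in the Tsc2+/+ and Tsc2-/- MEFs, 53.8 and 40.3 TPM in untreated and treated MKOC cells, and 55.2 and 37.8 TPM in untreated and treated TJ cells. The points share libraries, and r was the highest of many, so it is given as a description.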

How the data were processed

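Poly(A) RNA of the 6 libraries was sequenced by the authors as 100-base paired reads from a stranded kit, trimmed with Trimmomatic, and quantified with Kallisto. The methods name the hg38 human transcriptome, whereas the deposited transcript IDs are mouse Ensembl IDs; the Kallisto strand setting and version are not given in the sources used here. The authors deposited estimated counts and TPM per transcript for each library. A deposited table of the authors' own fold changes was used for gene symbols alone. Both units were summed here per symbol. For the 2 kidney lines, estimated counts were rounded and fitted with edgeR 4.0.16 (R 4.3.3) after filterByExpr and TMM, with treatment and cell line as terms. The lines are named in the labels and pair the libraries: deviations of the libraries of a line correlated at 0.56 over 12952 genes. The MEF libraries, 1 per genotype, were compared by ratios of TPM with 1 added, without a test. A gene was called at an adjusted p under 0.05 or, in the MEFs, at 2-fold.

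Nothing states that the libraries came from separate cultures, so p-values measure only the spread between these samples. Wilson 95% intervals of the counts cover counting error only. Library totals were 22887020 to 37505004 estimated counts, and the number of counts sets the precision of the level in a single library. Alternatives were DESeq2 1.42.0, limma 3.58.1, other normalizations, filters, pseudocounts and scalings, and leaving out each library. On simulated data for the rapamycin comparison (12793 genes), 92 of 100 genes changed by 1 and 96 of 100 changed by 2 on the log2 scale were called, with 11 false calls. The simulation changed 200 genes, with the same dispersion for every gene and the same response in both lines. It checks that the fit runs as meant and does not give the error rates in these data. The genes and pathway lists were chosen with earlier results of these data known. Named pathway genes were those called at an absolute log2 fold change of at least 1, the highest and lowest called gene of each list, those at least 2-fold in the MEFs, and those called at an absolute difference of at least 2 between TJ and MKOC, of which there were none; other pathway genes were named after their values were seen. A few genes that this rule names are not reported here. Positions come from GENCODE M21 (GRCm38) and sequences from RefSeq.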

Additional observations from a re-analysis of the deposited data

Results flagged for a closer look

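For 2 of the 10 genes the log2 change with rapamycin, from counts, had opposite signs in the kidney lines. Akt1s1 had −0.26 in MKOC and 0.16 in TJ cells, but its main transcript was lower with rapamycin in both lines. Rptor had −0.11 in MKOC and 0.0060 in TJ cells, the latter next to 0. Its summed TPM was lower with rapamycin in both lines, with overlapping counting intervals. Without transcripts under 300 bases its TPM in TJ cells was 15.95 untreated and 16.08 with rapamycin. With 1 library per line and treatment, the difference between the lines was not tested.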

How the results depend on the processing

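The 5 of 10 genes called with rapamycin became 3 with DESeq2, 3 without the replicate block and 0 to 2 when 1 library was left out; without the pairing of lines Rictor and Tbc1d7 no longer passed, and all genes called went from 4526 to 1275 without the block and to 0 to 613 with 1 library left out. Other normalizations and no filter on low counts gave 5, and limma gave 4, losing Rictor. Leaving out a library takes away the line term, so the lone library is assumed to vary like the other group. Akt1s1 changed sign there, from −0.25 to 0.14.

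Between TJ and MKOC cells 0 members were called under each alternative run. The 1139 genes called in all became 1753 without the filter, 630 with DESeq2, 605 with limma, 0 with the cell line alone, and 0 to 107 with 1 library left out. Signs of the uncalled members turned with limma for Rheb (0.0753), Mlst8 (0.0129) and Rptor (−0.0045), and with upper quartile scaling for Mlst8 (0.0040). With 1 library left out the line and treatment are partly confounded by construction, and log2 differences ranged over −0.12 to 0.23 for Tsc1, −0.86 to 0.68 for Tsc2, −0.45 to 0.17 for Tbc1d7, −0.32 to 0.22 for Rheb, −0.013 to 0.23 for Mtor, −0.13 to 0.12 for Mlst8, −0.86 to 0.50 for Deptor, −0.057 to 0.056 for Rptor and −0.013 to 0.46 for Rictor.

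In the MEFs, 3 members at least 2-fold apart became 1 with 5 TPM added in place of 1, since Deptor and Tsc2 then fell short. They became 4 with the main transcript alone, where Rheb reached a log2 ratio of 1.07, and 2 with CPM, where Akt1s1 was at 0.99. Rictor turned to −0.0571 with TPM scaled to a median ratio of 1 and to −0.0584 with CPM. The number of members varying at least 2-fold over the 6 libraries stayed at 5 without short transcripts, with TMM-scaled CPM and with the main transcript alone. Tbc1d7 had the fewest counts of the members in the kidney libraries, 211 to 397 per library. Whether depth set its calls was not tested.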
